A study of Mus musculus with 16 samples.

Results

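Untransfected NIH3T3 cells, an established line of mouse fibroblasts, were treated with 10 µM azacytidine and set against untreated cells of the same line on 4 of the 16 arrays of the series. The 4 arrays were chosen by their titles and source names, which name the line and the dose and no transfected gene. Each array was hybridised with RNA of treated cells and of untreated NIH3T3 cells in the other channel. Every value is read here as a ratio of treated over untreated, a direction that is likely and not recorded. Beyond azacytidine in the treated channel, the labels name no transgene, Cre or other agent. The remaining 12 arrays hold NIH3T3 cells transfected with Erbb2, a receptor tyrosine kinase oncogene, at 10 µM (8 arrays) and at 5 µM (4 arrays), each against untreated Erbb2-transfected cells. The series' design names the untransfected cells as the control for the transfected ones. The protocols among the labels speak of organs and of a reference pool of control animals, which no source name mentions. How long the cells were treated and how many separate cultures were used is stated in no label. The variation behind each p-value, taken from a fit to all 16 arrays, may therefore be technical.

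Azacytidine is a cytidine analogue. Cells take it up through nucleoside transporters, uridine-cytidine kinases phosphorylate it, most of it is built into RNA, and a part is reduced to the deoxy form and built into DNA. There it traps DNA methyltransferases, and methylation is lost as the cells divide. In RNA it disturbs the processing of ribosomal and transfer RNA and protein synthesis. It is best known for switching on genes with methylated promoters, for an interferon response in some tumour cells and, in mouse fibroblast lines, for conversion into muscle cells and adipocytes.

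Values below are log2 ratios, given for a gene as limma's fitted value ± its standard error, with n = 4 arrays unless stated otherwise. A gene passed when its adjusted p, by the Benjamini-Hochberg method over 12420 features, was under 0.05, and only such genes are said to have risen or fallen. The direction is the likely one and not a stated one. The values were read as Cy5 over Cy3, and arrays 3 and 4, whose treated channel is labelled Cy3, were turned in sign. Both channels of each of the 4 arrays carry the same dye label, Cy5 on arrays 1 and 2 and Cy3 on arrays 3 and 4. If the treated RNA was in the dye not named, every sign of these 4 arrays turns, and the same 339 features pass with 265 higher and 74 lower.

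The numbers themselves record part of how they were made. On each of the 16 arrays a value was the log2 of a ratio written with 3 decimals plus 1 constant for the array. Of the ratios between 0.01 and 0.1, which numbered 61 to 228 per array, 100% were multiples of 0.001 in the deposited orientation, within the tolerance used. Inverted ratios of the same size were multiples in 22% to 31.1%. The orientation in which the ratios were first written was therefore that of the file on arrays of both dye arrangements. The constants were below 0 on 16 of 16 arrays, and on the 4 untransfected arrays they were -1.17, -0.88, -1.02 and -0.83. Before that constant was added, the median ratio of these 4 arrays lay between 1.75 and 2.27, so that the numerator channel was the brighter one under both dye labels. Which dye the numerator was is not recorded.

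The 4 arrays gave 18171 to 18443 ratios each from 20355 probes, with an interquartile range of 0.867 to 0.925, and 111 to 167 cells per array held a placeholder that was set to missing. Signal intensities are not part of the values, so signal over background is unknown. Between 19% and 47% of the ratios from 10 to 100 were whole numbers, against 1.56% to 1.69% by the width of the tolerance alone. After turning, Pearson's r between pairs of the 4 arrays, across 11840 to 11949 features that are not independent replicates, ran from 0.058 to 0.152, and 56.0% to 59.5% of features had the same sign in a pair.

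Of the 12420 features 339 passed, which is 2.73%. They were 74 higher, or 0.596% of those tested, and 265 lower, or 2.13%. Each count of list members below is to be read against these shares, also where they are not repeated. No list was tested against them. Of the 339, 157 lay beyond a 2-fold difference, 54 higher and 103 lower. A gene symbol was carried by 207, of which 34 were higher and 173 lower. Of 321 that passed with a value on every array, 318 had one sign on all 4, while 2880 of 11369 measured features did so in all (25.3%). The same arrays gave the calls, so that agreement follows largely from the selection and is no separate evidence. Left out 1 at a time, the arrays gave counts of 213 to 259, and 149 of the 339 features passed without each of them. Gene by gene this was checked only for genes named by the rules given under processing. Of these 93 passed, and 47 did so without each array. On its own 4 arrays with a dye term, limma passed 0 features. There 1621 had an unadjusted p under 0.05, and no adjusted p was below 0.117. With no dye term, an alternative added after seeing the data, it passed 1, so the calls below rest on the spread shared with the 12 Erbb2 arrays. Features without a symbol are given as counts, except for the 2 with the smallest p among them, singled out after their values were seen. The feature probe9740 had 4.54, 4.45, 4.24 and 4.14, or 4.34 ± 0.17, and passed in Erbb2 cells too, at 3.29 ± 0.12. The feature probe7407 had 3.24, 3.20, 3.36 and 3.87, or 3.42 ± 0.21, beside 2.97 ± 0.15 in Erbb2 cells.

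**Figure D1:**
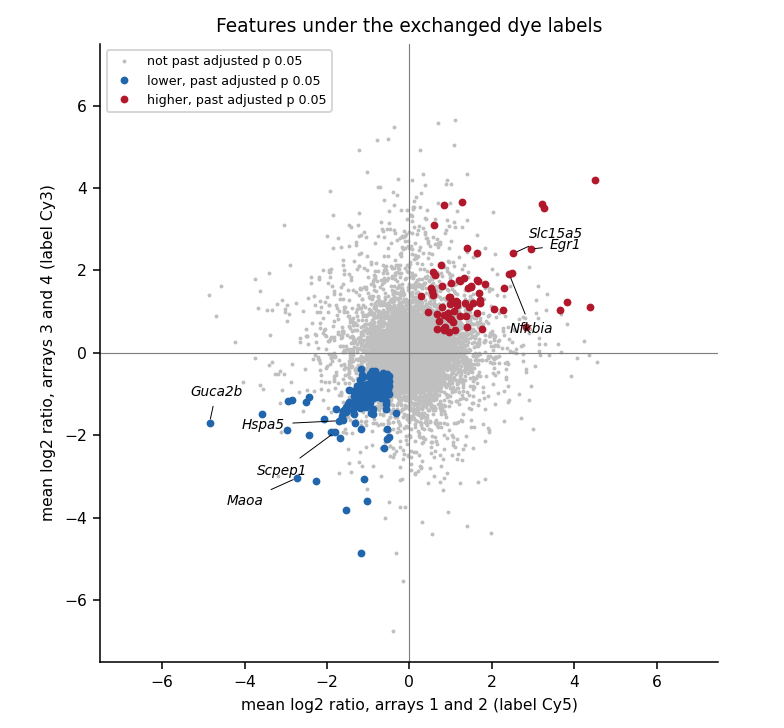
Each point is 1 of the 12420 features, with the mean log2 ratio of arrays 1 and 2 on the horizontal axis and that of arrays 3 and 4, which have the exchanged dye label, on the vertical axis. The 74 features past an adjusted p of 0.05 as higher (red) and the 265 as lower (blue) lie in the quadrants where both arrangements have one sign, while most of the others (grey) scatter around 0. The same arrays gave the calls, so this placement follows largely from the selection.

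Of the genes with a symbol that passed, the highest was Egr1, an early growth response transcription factor that growth factors and stress switch on within minutes (Entrez Gene 13653). It had 2.41, 3.48, 1.97 and 3.06, and its fitted value was 2.73 ± 0.31, or 6.64-fold (adjusted p 0.000279). All 4 arrays were far above 0 under both dye labels, which follows largely from its choice as the highest gene that passed. Other genes of the immediate early and AP-1 list went the other way. Klf4, a zinc finger factor that restrains proliferation, had -1.60, -1.31, -0.61 and -1.21 and fell by 1.18 ± 0.15. Btg1, an antiproliferative gene, fell by 0.89 ± 0.18, a call that was lost without array 1, 2 or 4 (adjusted p up to 0.105). Of 21 measured members of the list 1 rose and 2 fell, where 0.596% of all features rose and 2.13% fell. The median of the list was 0.13 beside 0.03 over all features.

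Nfkbia, which encodes the protein that keeps NF-kappaB out of the nucleus and is itself an NF-kappaB target (Entrez Gene 18035), had 2.51, 2.34, 1.12 and 2.70. It rose by 2.17 ± 0.22, or 4.49-fold (adjusted p 0.00014), with array 3 the lowest. It was the 1 of 18 members of the NF-kappaB list that passed, and that list had a median of 0.08. Mdm2, the ubiquitin ligase that marks p53 for destruction and is a p53 target (Entrez Gene 17246), had 1.85, 1.48, 1.44 and 2.04. It rose by 1.70 ± 0.18 and its 2 probes had 1.46 and 1.95. Among 26 measured p53 targets and apoptosis genes it was the 1 that rose, where 0.596% of all features rose and 2.13% fell. Apaf1, the scaffold on which caspase-9 is activated, had -0.87, -0.78, -0.81 and -0.74 and was the 1 that fell, by 0.80 ± 0.14. Cdkn1a, the p53-induced inhibitor of cyclin-dependent kinases, had 0.65, 1.04, 0.03 and -0.26, straddled 0 and did not pass (0.37 ± 0.65).

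The stretch before the annotated start of Nfkbia is shown because the gene stood alone in its list. It holds 1 match to the kappaB consensus, in capitals, which 11.2% of the 6321 tested genes with a promoter sequence hold within 250 bases before the start, on either strand. It lies at chr12:55492648-55492696 (GRCm38.p6, minus strand, from RefSeq).
Nfkbia: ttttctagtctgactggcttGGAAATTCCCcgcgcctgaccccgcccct

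**Figure D2:**
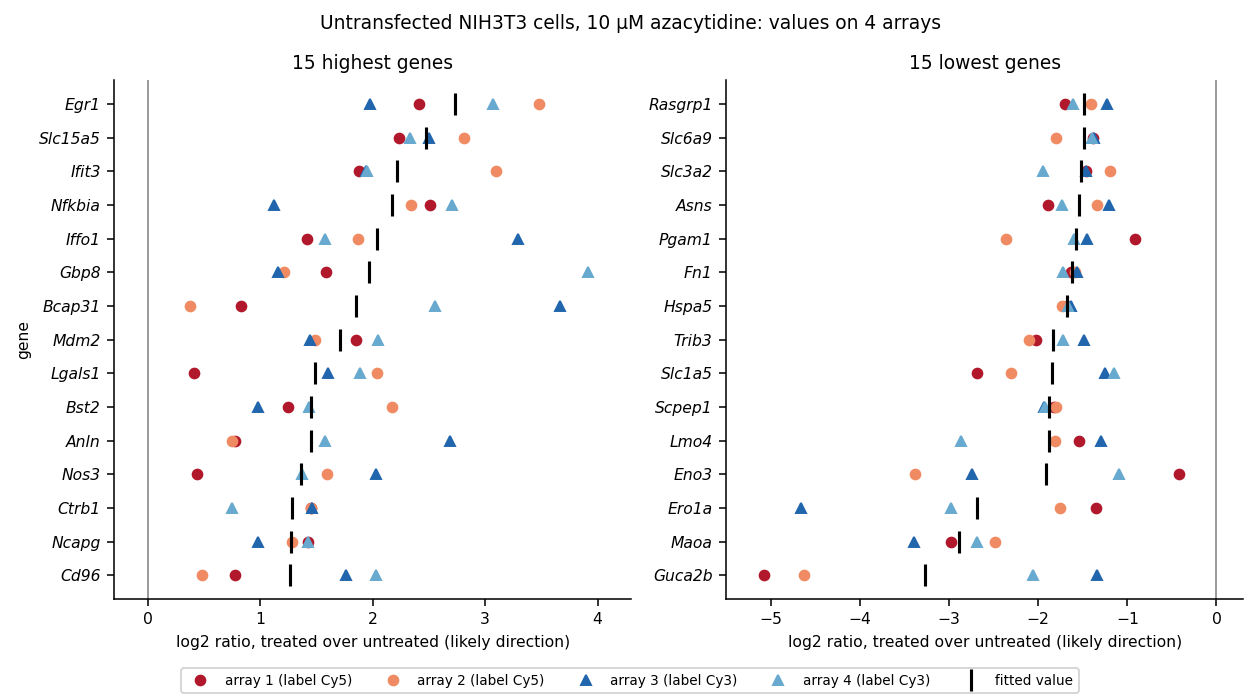
Log2 ratios (horizontal axes) of the 15 highest and 15 lowest genes that passed with one sign on all 4 arrays, with red and orange circles for arrays 1 and 2, blue triangles for arrays 3 and 4, and a bar for the fitted value. Hspa5 lay between -1.73 and -1.63 on the 4 arrays, while Guca2b ran from -5.07 to -1.34 and Bcap31 from 0.37 to 3.66.

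The smallest p among genes with a symbol was that of Slc15a5, a member of the proton-coupled peptide transporter family (Entrez Gene 277898). It had 2.23, 2.81, 2.50 and 2.33 and rose by 2.47 ± 0.17, or 5.54-fold, with an adjusted p of 1.89e-06 that stayed at or below 6.4e-05 when any 1 array was left out. Iffo1, an intermediate filament family gene, had 1.41, 1.87, 3.29 and 1.57 and rose by 2.04 ± 0.35. Cd151, a tetraspanin of cell adhesion, had a placeholder or no value on array 1 and 0.84, 4.54 and 2.64 on the others (2.59 ± 0.50, n = 3). Its call was lost without array 3 or 4, with an adjusted p of up to 0.094.

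Several of the other rises were uneven between arrays or dyes. Bcap31, a sorting protein of the endoplasmic reticulum, had 0.83, 0.37, 3.66 and 2.55, higher under the Cy3 label. It rose by 1.85 ± 0.42, but not without array 1, 3 or 4 (adjusted p up to 0.183). Lgals1, the secreted lectin galectin-1, rose by 1.48 ± 0.27 as a mean of 2 probes that had 0.26 and 3.52, and with the first probe alone it did not pass. Its call was also lost without array 2 (adjusted p 0.0617). Cd96, a receptor of lymphocytes, had 0.78, 0.48, 1.76 and 2.03 and rose by 1.26 ± 0.25, a call that was lost without array 3 or 4. Nos3, the endothelial nitric oxide synthase, rose by 1.36 ± 0.27, and its call was lost without array 2, 3 or 4. Ctrb1, which encodes the digestive enzyme chymotrypsinogen, had 1.45, 1.45, 1.46 and 0.75 and rose by 1.28 ± 0.24, a call lost without array 1 or 2.

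Interferon response and MHC class I genes lay mostly above 0. Of 30 measured members 3 rose and 0 fell, 25 had values above 0, and the median was 0.57, against 74 higher of 12420 features and a median of 0.03 over all. The median of the list was 0.735, 0.498, 0.816 and 0.446 on the 4 arrays, above 0 on each. Ifit3, an interferon-induced protein that helps to block viral RNA, had 1.88, 3.09, 1.94 and 1.95 and rose by 2.22 ± 0.51, or 4.64-fold. Gbp8, a guanylate-binding GTPase, had 1.58, 1.21, 1.16 and 3.92 and rose by 1.97 ± 0.47. Bst2, or tetherin, which holds budding viruses at the cell surface, had 1.25, 2.17, 0.97 and 1.43 and rose by 1.45 ± 0.31. These 3 calls were lost when single arrays were left out, that of Bst2 without array 2, 3 or 4 and those of Ifit3 and Gbp8 without any 1 array, with adjusted p up to 0.131, 0.142 and 0.256.

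Further members lay above 0 on all 4 arrays without passing. The MHC class I heavy chain H2-K1 had 4.16, 1.65, 1.87 and 2.30, and the immunoproteasome subunit Psmb10 had 1.18, 1.64, 1.77 and 4.65. The peptide transporter Tap1 had 0.69, 1.33, 1.52 and 0.51, and Eif2ak2, the double-stranded RNA kinase PKR, had 0.71, 0.83, 0.86 and 0.50. Not all members lay so: B2m, the class I light chain, had 0.73, 0.30, 0.20 and -0.70, and Ifitm2, which blocks viral entry, was below 0 on all 4 arrays (-0.24 ± 0.16, not passed).

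The promoters of both Ifit3 and Bst2 hold 2 matches to the core of the interferon-stimulated response element, GAAA repeated after 2 bases on either strand, in capitals below, and those of Bst2 overlap. This core is present in 2.97% of the 6321 genes tested with a promoter and in 2.98% of all 32851 promoters of the table. Of the 27 genes that rose and have a promoter sequence 2 hold it, Ifit3 and Bst2, and of the 143 that fell 3 hold it, Rps7, Stt3a and Vegfa. The stretches lie at chr19:34583353-34583436 on the plus strand for Ifit3 and at chr8:71537567-71537622 on the minus strand for Bst2 (GRCm38.p6, from RefSeq).
Ifit3: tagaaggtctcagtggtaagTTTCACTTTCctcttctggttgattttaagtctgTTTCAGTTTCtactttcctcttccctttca
Bst2: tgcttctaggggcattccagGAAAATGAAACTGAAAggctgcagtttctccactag

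Genes of mitosis also lay mostly above 0. Of 37 measured genes of G2 phase and mitosis 3 rose, beside 0.596% of all features, and 0 fell. Of the 37, 29 were above 0, and the median was 0.34, with 0.483, 0.506, 0.265 and 0.625 on the 4 arrays. Cks2, a small partner of cyclin-dependent kinases, had 1.37, 0.94, 1.12 and 1.33 and rose by 1.19 ± 0.18. Ncapg, a condensin subunit that compacts chromosomes, had 1.42, 1.28, 0.98 and 1.42 and rose by 1.28 ± 0.20. Both calls held without any 1 array. Anln, the cytokinesis protein anillin, had 0.77, 0.75, 2.68 and 1.58, and its rise of 1.45 ± 0.31 was lost without array 3 or 4. Many members were far less regular: Top2a, the topoisomerase that separates sister chromatids, had 1.15, 0.97, -2.57 and 0.91 and did not pass.

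Of 28 measured genes of S phase and DNA replication 0 rose and 1 fell, where 0.596% of all features rose and 2.13% fell. Of the 28, 21 were above 0 and the median was 0.355. The gene that fell was Gins3, a subunit of the replicative helicase, with -1.04, -1.19, -0.65 and -0.92 (-0.95 ± 0.16). The sliding clamp Pcna had 0.17, 0.34, 0.02 and -0.07 and the licensing factor Mcm5 had 1.58, 0.70, 1.67 and -0.43, and neither passed. The 17 measured histone genes had a median of 0.275 with 14 above 0, and 1 of them, the H4 gene H4c8, rose by 1.08 ± 0.16 with 0.93, 1.03, 1.10 and 1.27. A ratio cannot tell more dividing cells from more of these messages per cell, and less of a message per cell from fewer cells that hold it.

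Chaperones of the endoplasmic reticulum were among the genes that fell. This compartment folds secreted proteins, and when unfolded proteins build up, the sensors PERK, IRE1 and ATF6 raise its chaperones, while PERK and related kinases slow translation and raise ATF4. Hspa5, the main Hsp70 chaperone there, also called BiP (Entrez Gene 14828), had -1.67, -1.73, -1.63 and -1.67. It fell by 1.68 ± 0.17 to 0.313 of the untreated level (adjusted p 0.00014), and all 4 arrays lay between -1.73 and -1.63. Hsp90b1, the Hsp90 of the compartment, had -1.19, -1.40, -0.89 and -1.60 and fell by 1.27 ± 0.22. Both calls held without any 1 array.

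Of 26 measured chaperones and foldases 4 fell, beside 2.13% of all features, 0 rose, and 17 were below 0. Serpinh1, the collagen chaperone, had -1.35, -1.29, -1.30 and -1.17 and fell by 1.28 ± 0.29. Ero1a, the oxidase that drives disulphide formation, had -1.35, -1.75, -4.66 and -2.98 and fell by 2.68 ± 0.66. The calls of Serpinh1 and Ero1a were each lost without any 1 array, with adjusted p up to 0.142 and 0.25. The lectin chaperones Canx (-0.56 ± 0.15) and Calr (-0.42 ± 0.13) were below 0 on all 4 arrays and did not pass. Among 34 genes of the translocon, signal peptidase and degradation, 2 subunits of the oligosaccharyltransferase that attaches N-glycans fell, Krtcap2 by 0.98 ± 0.20 and Stt3a by 0.94 ± 0.22, and Bcap31 rose. The calls of the first 2 were lost without any 1 array.

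The promoters of Hspa5 and Hsp90b1 are shown because they hold the ER stress response element, CCAAT and CCACG with 9 bases between them on either strand. It was found in 0.19% of the genes tested, 12 of 6321, and in 0.113% of all promoters of the table. Of those 12 genes 2 passed, and both fell. The other 10 did not pass and had values from -0.75 for Creld2 to 1.17 for Ero1b. The stretches lie at chr2:34772013-34772055 on the plus strand for Hspa5 and at chr10:86705521-86705668 on the minus strand for Hsp90b1, which has 2 matches (GRCm38.p6, from RefSeq).
Hspa5: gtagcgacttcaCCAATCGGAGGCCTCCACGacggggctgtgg
Hsp90b1: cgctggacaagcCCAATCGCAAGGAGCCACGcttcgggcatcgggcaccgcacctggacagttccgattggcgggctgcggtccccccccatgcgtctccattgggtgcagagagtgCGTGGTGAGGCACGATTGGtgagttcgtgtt

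The signalling genes of the unfolded protein and integrated stress response numbered 13. Of these 3 fell, beside 2.13% of all features, 0 rose, and the median was -0.465. Trib3, a pseudokinase induced by ATF4, had -2.03, -2.10, -1.49 and -1.72 and fell by 1.84 ± 0.38, a call lost without any 1 array (adjusted p up to 0.0762). Chac1, an enzyme that breaks down glutathione and another ATF4 target, had -0.89, -1.38, -1.08 and -1.54 and fell by 1.22 ± 0.23, a call lost without array 2 (adjusted p 0.0612). Atf4 itself, the transcription factor of the pathway, had -0.75, -0.99, -0.93 and -0.86 and fell by 0.89 ± 0.13. Ddit3, which encodes the stress factor CHOP, had -1.26, -1.61, -1.70 and -1.55 with a fitted value of -1.53 ± 0.54, and did not pass.

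Genes of amino acid supply were measured as well. Of 23 measured genes of amino acid synthesis and transport 7 fell, beside 2.13% of all features, and 0 rose. The median was -0.545, with -0.70, -0.733, -0.667 and -0.396 on the 4 arrays. Slc3a2, the heavy chain that several exchangers share, had -1.46, -1.20, -1.46 and -1.94 and fell by 1.52 ± 0.17. Slc6a9, a glycine transporter, had -1.39, -1.80, -1.37 and -1.39 and fell by 1.49 ± 0.17. Slc38a2, which imports small neutral amino acids, fell by 1.18 ± 0.14, although its 2 probes had -1.98 and -0.38. Slc1a5, a glutamine transporter, had -2.69, -2.31, -1.25 and -1.15, lower under the Cy5 label, and its fall of 1.85 ± 0.42 was lost without any 1 array.

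Among the enzymes, asparagine synthetase Asns had -1.89, -1.34, -1.20 and -1.74 and fell by 1.54 ± 0.34. Phgdh and Psat1, the first steps of serine synthesis, fell by 1.21 ± 0.25 and 0.84 ± 0.21, and array 3 was near 0 for Psat1 (-0.15). The call of Asns was lost without any 1 array (adjusted p up to 0.119), and those of the transporters Slc3a2, Slc6a9 and Slc38a2 held. Those of Phgdh and Psat1 were not checked with arrays left out. Of 21 aminoacyl-tRNA synthetases, which load amino acids onto transfer RNA, 18 were below 0 and 2 fell, beside 2.13% of all features. Eprs, for glutamate and proline, had -1.30, -1.40, -1.19 and -1.79 and fell by 1.42 ± 0.16. Yars, for tyrosine, had -1.49, -1.25, -1.43 and -1.36 and fell by 1.38 ± 0.29, a call lost without any 1 array (adjusted p up to 0.0758).

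The promoters of Asns and Chac1 hold the amino acid response element to which ATF4 binds, searched as TGATGNAA on either strand and shown in capitals. It is present in 2.5% of the genes tested, in 0 of the 27 that rose and in 5 of the 143 that fell, or 3.5%. The other 3 were Eif2s3x, Serpinf1 and Sfpq. Atf4, Trib3, Slc3a2, Slc6a9, Slc38a2, Eprs and Yars, which also fell, do not hold it within those 250 bases. The stretches lie at chr6:7693210-7693252 on the minus strand and at chr2:119351029-119351076 on the plus strand (GRCm38.p6, from RefSeq).
Asns: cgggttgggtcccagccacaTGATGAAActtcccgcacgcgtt
Chac1: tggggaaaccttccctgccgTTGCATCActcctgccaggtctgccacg

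**Figure D3:**
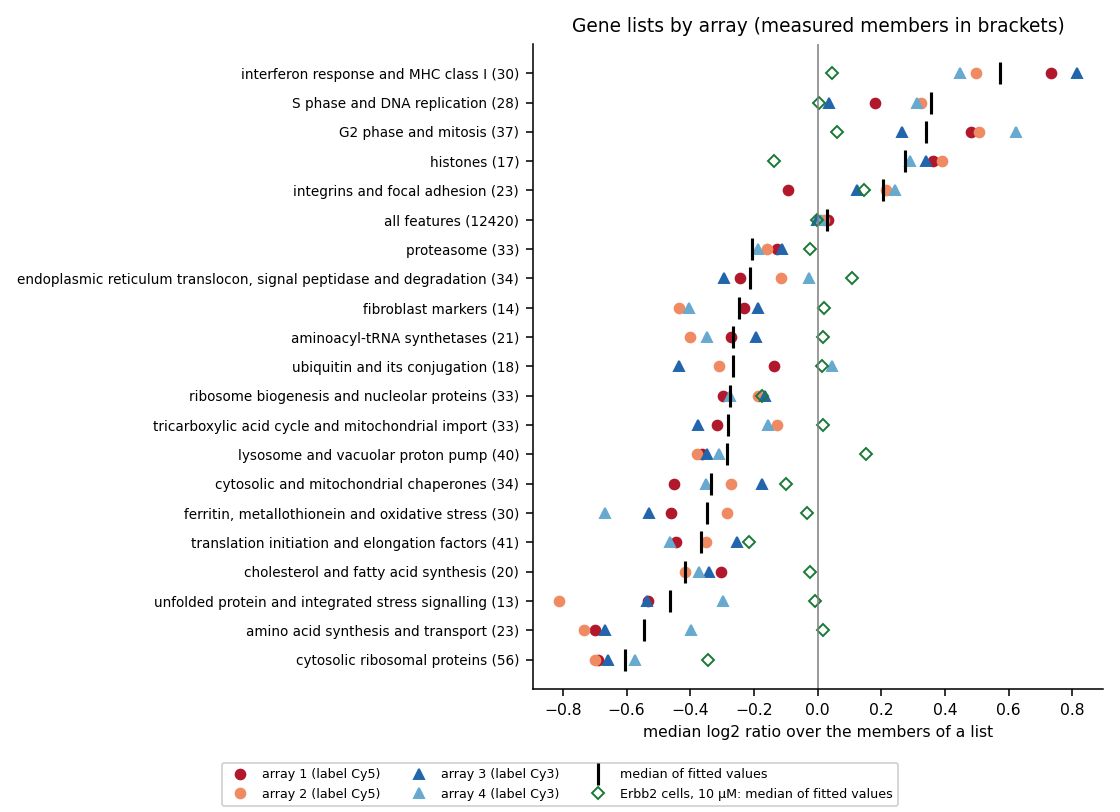
Median log2 ratio over the measured members (horizontal axis) of gene lists with at least 13 measured members and a median at least 0.2 from 0, on each of the 4 arrays, beside the median of their fitted values (bars) and that of Erbb2-transfected cells at 10 µM (open diamonds). Cytosolic ribosomal proteins lay between -0.70 and -0.57 on the 4 arrays, and interferon and MHC class I genes between 0.45 and 0.82.

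The messages of the cytosolic ribosome fell in greater number than those of any other list. Of 56 measured ribosomal protein genes 22 fell, among 265 lower features or 2.13% of all, and 0 rose. Of the 56, 54 lay below 0, with a median of -0.60. On the 4 arrays the medians were -0.69, -0.70, -0.66 and -0.57. The 22 that fell ran from -1.27 to -0.53, and their values on single arrays from -1.30 to -0.42. Rps4x had -1.29, -1.28, -1.30 and -1.21, Rps9 had -0.89, -0.85, -0.88 and -0.88, and Rplp0, of the stalk that recruits elongation factors, had -0.55, -0.56, -0.49 and -0.54. For these genes, chosen after their values were seen, the 4 arrays differed by far less than the distance from 0. Others that fell varied more, such as Rpl39 with -1.12, -1.06, -0.66 and -0.94. The same arrays gave the calls, so closeness of the arrays follows in part from the selection. Rps27 (-1.13 ± 0.14), Rpl5 (-1.10 ± 0.15), a binder of Mdm2 when unassembled, and Rps14 (-1.07 ± 0.13) had the smallest p of the list, and their calls held without any 1 array. Ribosomal protein genes have many near-identical pseudogenes, so single members are uncertain where a cDNA probe binds several of them.

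Mitochondrial ribosomal proteins, encoded by other nuclear genes, gave no calls. Of 53 measured members 0 passed in limma and 0 had an unadjusted p under 0.05, beside 1428 of all 12420 features. Of the 53, 32 were above 0 and the median was 0.05. Of 41 cytosolic translation factors 7 fell, beside 2.13% of all features, and 0 rose, with a median of -0.37. Eef1b2, which recharges elongation factor 1 with GTP, had -1.17, -1.32, -1.21 and -1.20 and fell by 1.23 ± 0.14. Pabpc1, the protein that coats poly(A) tails, fell by 0.70 ± 0.14 and lost its call without array 4 (adjusted p 0.0506). Tpt1, a growth-related protein whose message is translated like those of ribosomal proteins, had -1.07, -0.22, -1.07 and -1.10 and fell by 0.87 ± 0.18, a call lost without array 1, 3 or 4. Npm1, the nucleolar histone chaperone of ribosome assembly, had -0.65, -0.55, -0.62 and -0.70 and fell by 0.63 ± 0.14, a call that was lost without any 1 array.

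**Figure D4:**
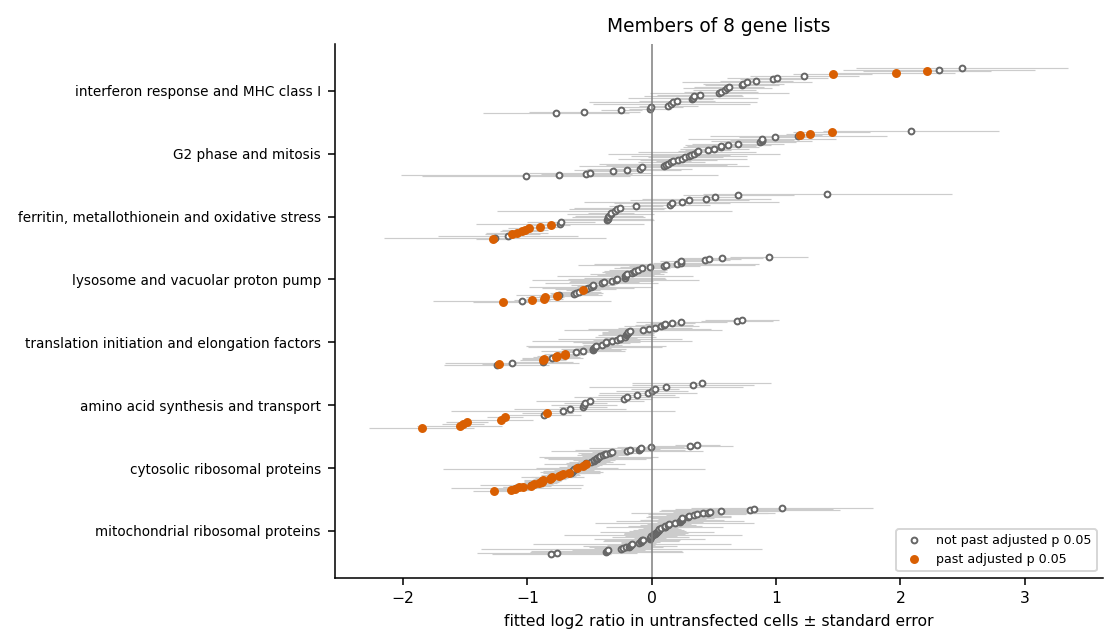
Fitted log2 ratio in untransfected cells (horizontal axis) with its standard error for every measured member of 8 gene lists, each list sorted by value and filled where the adjusted p was under 0.05. Cytosolic ribosomal proteins hold 22 filled points, all below 0, mitochondrial ribosomal proteins hold 0, and the 3 filled points of the interferon list lie at 1.45 to 2.22.

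Iron storage and antioxidant genes were among those that fell. Of 30 measured genes of ferritin, metallothionein and oxidative stress 8 fell, beside 2.13% of all features, and 0 rose, with a median of -0.35. The ferritin heavy chain Fth1 had -1.02, -1.03, -1.08 and -1.06 over 4 probes that ran from -1.10 to -1.01, and it fell by 1.05 ± 0.17. The light chain Ftl1 had -1.35, -1.32, -1.25 and -1.17 and fell by 1.27 ± 0.14. Mt1, the metal-binding metallothionein 1, had -1.30, -1.21, -1.15 and -0.82 and fell by 1.12 ± 0.22. The other 5 were Gstp1, a glutathione transferase (-1.08 ± 0.25), Gclm, the modifier subunit of glutathione synthesis (-1.02 ± 0.19), the peroxiredoxin Prdx1 (-0.99 ± 0.17), the superoxide dismutase Sod1 (-0.90 ± 0.15) and Hmox1, which degrades haem (-0.81 ± 0.15). The calls of Mt1, Gstp1, Gclm, Prdx1 and Hmox1 were not checked with arrays left out. Of the 143 genes that fell and have a promoter sequence, 21.0% hold the core of the antioxidant response element, TGACNNNGC on either strand. So do 11.1% of the 27 that rose and 14.3% of all 6321 tested. Among the 8 genes above, Gclm, Prdx1 and Sod1 hold it, while both ferritin genes, Fth1 and Ftl1, do not. Most of the holders that fell belong to other lists or to none, and these shares were not tested.

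Enzymes of central metabolism were also among the genes that fell. Of 18 measured glycolysis genes 5 fell and 0 rose, with a median of -0.19. Aldoa, an aldolase, had -1.26, -1.01, -0.96 and -1.13 and fell by 1.09 ± 0.14, with 3 probes between -1.17 and -0.93. Gapdh fell by 0.81 ± 0.15, the mutase Pgam1 by 1.58 ± 0.24, with arrays between -2.36 and -0.91, and pyruvate kinase Pkm by 0.76 ± 0.18. The call of Pkm was not checked with arrays left out. Eno3, the muscle enolase, had -0.42, -3.38, -2.75 and -1.09 and fell by 1.91 ± 0.41, a call lost without array 2 or 3. Of 68 genes of oxidative phosphorylation 3 fell, beside 2.13% of all features. They were Ndufa6 of complex I (-0.92 ± 0.16), Uqcrq of complex III (-0.90 ± 0.21) and Atp5l of ATP synthase (-0.61 ± 0.14). The calls of the last 2 were lost without any 1 array. Pdha1, of the pyruvate dehydrogenase complex, had -0.80, -0.98, -1.26 and -1.48 and fell by 1.13 ± 0.22, with the call lost without array 4. The mitochondrial phosphate carrier Slc25a3 fell by 0.98 ± 0.16, and the aconitase Aco1 rose by 1.44 ± 0.36 (n = 3) with 2.83 on array 1 and 0.783 and 0.485 on arrays 3 and 4, a call lost without array 1, 2 or 3 (adjusted p up to 0.587).

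Hspd1, the chaperonin of mitochondria, had -1.08, -1.32, -1.25 and -1.41 and fell by 1.27 ± 0.15, and its 2 probes had -1.27 and -1.26. It led the 34 measured cytosolic and mitochondrial chaperones, of which 3 fell. The others, Tcp1 of the cytosolic chaperonin (-0.68 ± 0.15) and the prolyl isomerase Fkbp1a (-0.54 ± 0.13), lost their calls without any 1 array. Of 20 genes of cholesterol and fatty acid synthesis 1 fell, the desaturase Scd2 (-0.82 ± 0.15), with a list median of -0.42, and its call was lost without array 2 (adjusted p 0.0609). In the hypoxia list 1 of 17 fell, the angiogenic factor Vegfa (-1.01 ± 0.23), which was lost without array 1, 2 or 4. Over all features 2.13% fell, so lists of 17 or 20 genes hold few or no calls at that share.

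The matrix and cytoskeleton of the fibroblast gave few calls with tight values. Fibronectin Fn1 had -1.63, -1.58, -1.56 and -1.73 over 5 probes and fell by 1.63 ± 0.20, or to 0.324 of the untreated level. The collagen chain Col1a2 had -0.94, -0.80, -0.71 and -0.69 and fell by 0.79 ± 0.19, and lysyl oxidase Lox, which crosslinks collagen, fell by 1.06 ± 0.18. Ddr2, a collagen receptor, fell by 0.97 ± 0.19, and the intermediate filament vimentin, Vim, by 0.55 ± 0.14. Of these 5, Fn1 and Lox held their calls without any 1 array. Among all 43 measured collagens and matrix proteins 2 fell, beside 2.13% of all features, and the median was 0.00.

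Ratios give no level of a gene, so the labelled line cannot be checked against its markers, and which markers of other cell types are absent is unknown. Of 14 fibroblast markers 4 fell, Fn1, Col1a2, Ddr2 and Vim, and the median was -0.25. Of 13 muscle markers 1 fell, the myosin light chain Mylpf (-0.78 ± 0.15), a call lost without array 2 (adjusted p 0.0593), and of 9 adipocyte markers 1 rose, Ucp1, the uncoupling protein of brown fat, with 1.91, 0.53, 0.44 and 1.33 (1.05 ± 0.23), a call lost without array 1 or 4. Of 9 epithelial markers 1 rose, keratin Krt8 (1.13 ± 0.27), which was lost without any 1 array. Of 13 blood and immune markers 1 fell, Tyrobp (-0.68 ± 0.16), a call lost without any 1 array (adjusted p up to 0.2), and of 14 endothelial and neural markers 2 fell, the cadherin Cdh5 and the vesicular GABA transporter Slc32a1. Cdh5 had -1.15, -1.11, -1.03 and -1.02 (-1.08 ± 0.13), and Slc32a1 had -3.95, -1.75 and -1.14 (-2.23 ± 0.39, n = 3). Over all features 0.596% rose and 2.13% fell, so lists of 9 to 14 genes hold few or no calls at those shares. The medians of these marker lists lay between -0.25 and 0.55, and their part in the other results was not tested.

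Among the genes of DNA methylation and of azacytidine uptake and metabolism 2 passed, Mbd2 and Nme2. Dnmt1, the maintenance methyltransferase that the drug traps, had -0.105, -0.098, -0.11 and -0.11, a spread of 0.006 (SD, n = 4), with a fitted value of -0.11 ± 0.14 that did not pass. Dnmt3a, a de novo methyltransferase, had -0.52 ± 0.22 and did not pass, and Dnmt3b was not measured after filtering. Mbd2, a reader of methylated CpG, had -1.22, -1.27, -1.02 and -0.96 and fell by 1.12 ± 0.20. It was the 1 of 10 genes of its list that passed, beside 2.73% of all features. Uhrf1, which brings Dnmt1 to replicated DNA, had 3.68, 1.93 and 2.78 on arrays 1 to 3 and -1.07 on array 4 (1.83 ± 0.64, not passed). Leaving out array 4 raised it to 2.68, which passed (adjusted p 0.0467).

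Of 21 measured genes of azacytidine uptake and nucleotide metabolism 1 passed. Nme2, a kinase that turns nucleoside diphosphates into triphosphates, had -1.13, -1.11, -1.09 and -1.17 and fell by 1.13 ± 0.15. The uridine-cytidine kinases Uck1 (-0.31 ± 0.18) and Uck2 (0.12 ± 0.21), the transporter Slc29a1 (-0.05 ± 0.16), deoxycytidine kinase Dck (0.18 ± 0.46), cytidine deaminase Cda (0.35 ± 0.40) and the large subunit of ribonucleotide reductase Rrm1 (0.23 ± 0.38) did not pass. The small subunit Rrm2 was above 0 on all 4 arrays (0.87, 1.11, 1.79 and 0.61) and did not pass either (1.10 ± 0.52). The probes of Uck2 and of Slc29a1 differed in sign among themselves. Of 19 germline genes, 14 imprinted genes and 36 chromatin regulators 0 passed in limma, where 2.73% of all features did, so that lists of these sizes hold few or no calls at that share. They had 2, 2 and 4 members at an unadjusted p under 0.05 in limma, beside 1428 of all 12420 features. Their medians were 0.199, -0.03 and -0.10. Of 28 secretory pathway and vesicle coat genes 0 passed in limma and 3 had an unadjusted p under 0.05, with a median of 0.01.

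Azacytidine traps DNA methyltransferases, which act on CpG sites. All CpG sites before each gene's start were therefore counted, whether methylated or not. The median was 10 sites within 250 bases for the 27 genes that rose, 18 for the 143 that fell and 15 for the 6321 tested. Fewer than 5 sites were present in 9 of the 27 (33.3%), in 16 of the 143 (11.2%) and in 16% of all tested. The 9 were Arrdc5, Cd96, Ctrb1, Dpy30, Ifit3, Krt8, Psmb11, Slc15a5 and Ttll10. These shares describe sequence and were not tested, and methylation itself was not measured on these arrays.

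Among the 15 lowest genes was Scpep1, a serine carboxypeptidase. It had -1.83, -1.80, -1.94 and -1.93 and fell by 1.87 ± 0.15 (adjusted p 1.2e-05). Maoa, the monoamine oxidase A of the mitochondrial surface, had -2.98, -2.49, -3.39 and -2.69 and fell by 2.89 ± 0.40, or to 0.135 of the untreated level. Rasgrp1, an activator of Ras, fell by 1.48 ± 0.16, and Lmo4, a LIM-only cofactor of transcription, by 1.88 ± 0.22, with 2 probes at -2.58 and -1.18. All 4 of these calls held without any 1 array. Guca2b, which encodes the gut peptide uroguanylin, had -5.07, -4.63, -1.34 and -2.06 and fell by 3.27 ± 0.55. Its ratios before the constant were 0.067 and 0.074 on arrays 1 and 2, in files that hold steps of 0.001. Ddx52, an RNA helicase of ribosome assembly, had -2.09, -0.24 and -4.87 (-2.54 ± 0.59, n = 3), and its call was lost without array 1 or 4. Its ratio before the constant on array 4 was 52.0, a whole number within the tolerance used.

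A few calls came from further lists. Over all features 0.596% rose and 2.13% fell, so lists of these sizes hold few or no calls at those shares. The proteasome list of 33 had 1 higher, the thymus-specific subunit Psmb11, with 2.62 on array 1 and 0.93, 0.68 and 0.46 on the others, and 1 lower, the small cap subunit Sem1 (-0.65 ± 0.13). The ubiquitin list of 18 had 1 lower, the cullin Cul4a (-0.96 ± 0.19), and the splicing list of 53 had 2, Ptbp1 (-0.79 ± 0.18) and Sfpq (-0.64 ± 0.15). Without single arrays these 5 calls were lost as well, that of Sem1 without array 2, those of Cul4a and Ptbp1 without 3 of the 4 arrays in turn, and those of Psmb11 and Sfpq without any 1. The integrin and focal adhesion list had Cd151 alone, and the growth factor list Vegfa alone.

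The contrast with Erbb2-transfected cells at the same dose asked where the cells without the oncogene responded differently. The difference, untransfected minus Erbb2, passed for 99 of 12420 features (0.797%), 22 higher (0.177%) and 77 lower (0.62%). The Erbb2 group has untreated Erbb2 cells as its own control, so the 2 groups share no RNA. Of the 339 features that passed in untransfected cells, 90 also passed in Erbb2 cells, where 157 passed in all (1.26%, with 0.403% higher and 0.862% lower), which is 26.5% of the first list and 57.3% of the second. Of these 90, 79 had the same sign in both groups and 11 the opposite. With the treated RNA of the untransfected arrays in the other dye those numbers would change places.

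The 5 genes with the smallest p among those higher in untransfected cells included 3 regulators, Egr1, Mdm2 and Nfkbia. Egr1 had -0.75 ± 0.23 in Erbb2 cells, a difference of 3.48 ± 0.39 (adjusted p 0.000465). Mdm2 had -0.43 ± 0.13 there, a difference of 2.13 ± 0.22 (adjusted p 0.000161), and Nfkbia 0.30 ± 0.16, a difference of 1.87 ± 0.28. Slc15a5 (0.25 ± 0.12) and Cks2 (-0.50 ± 0.13) differed by 2.22 ± 0.21 and 1.69 ± 0.22. All 5 differences passed, as the choice of these genes required. In Erbb2 cells alone limma's adjusted p of the 5 ran from 0.0743 for Cks2 to 0.528 for Nfkbia.

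Several genes that fell here and rose in Erbb2 cells had small p in the contrast. Apaf1 had 1.15 ± 0.10 in Erbb2 cells against -0.80 ± 0.14 here, and Hyi, a hydroxypyruvate isomerase, 1.11 ± 0.10 against -0.77 ± 0.13, with adjusted p of 4.3e-05 for both differences. The homeobox gene Hoxb1 had 1.18 ± 0.11 against -0.67 ± 0.15, and the membrane protein gene Lhfpl2 had 0.99 ± 0.12 against -1.09 ± 0.17. On the untransfected arrays Hyi had -0.86, -0.69, -0.80 and -0.72 and Hoxb1 had -0.56, -0.61, -0.55 and -0.96. All 4 arrays lay opposite in sign to the fitted value of the other line. The genes were chosen by this contrast, so that follows largely from the selection. The value of Hoxb1 in untransfected cells lost its call without any 1 array (adjusted p up to 0.164), and those of Apaf1, Hyi and Lhfpl2 held.

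Lysosomal genes were among those that differed, with the signs as read here. Of 40 measured lysosome and vacuolar proton pump genes 6 fell in untransfected cells, beside 2.13% of all features, and 0 rose, with a median of -0.29. In Erbb2 cells 3 rose, beside 0.403% of all features, and 0 fell, with a median of 0.15. The difference passed for 6, all lower, where 0.62% of all features were lower in that contrast. Grn, the precursor of the granulins, had -0.93, -0.83, -0.74 and -0.96 (-0.86 ± 0.15) here and 0.66 ± 0.10 in Erbb2 cells. Psap, the saposin precursor, had -0.70, -1.05, -0.79 and -0.50 (-0.76 ± 0.15) and differed by -1.73. Npc2, which carries cholesterol out of the lysosome, had -0.55 ± 0.13 and differed by -1.01. The proton pump subunits Atp6ap1 (-0.96 ± 0.15), Atp6v1a (-0.86 ± 0.15) and Atp6v1g1 (-1.20 ± 0.24) differed by -1.27, -1.05 and -1.35. Calls of Psap, Npc2 and Atp6v1g1 were not checked with arrays left out.

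Other lists differed less evenly. Ribosomal protein genes had medians of -0.60 here and -0.35 in Erbb2 cells, with 18 lower there, beside 0.862% of all features. The difference passed in limma for 0 of these 56, with 14 at an unadjusted p under 0.05. Glycolysis genes had -0.19 and -0.25, and the difference passed in limma for 0 of 18, with 3 at an unadjusted p under 0.05. In the amino acid list the difference passed for 2 of 23, Slc3a2 and Slc6a9, and in the synthetase list for 2 of 21, Eprs and Yars. Each was lower in untransfected cells, as were 0.62% of all features. Of the ferritin and oxidative stress genes 4 of 30 differed, Fth1, Ftl1, Gstp1 and Sod1, all lower here. Hspa5 had -0.49 ± 0.12 in Erbb2 cells and differed by -1.19 ± 0.21 (adjusted p 0.0157). Of the 30 interferon genes 0 differed past the threshold in limma and 7 had an unadjusted p under 0.05, with medians of 0.57 here and 0.05 in Erbb2 cells. The count of differences fell from 99 to between 60 and 69 when 1 untransfected array was left out, and it was lowest without array 4.

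**Figure D5:**
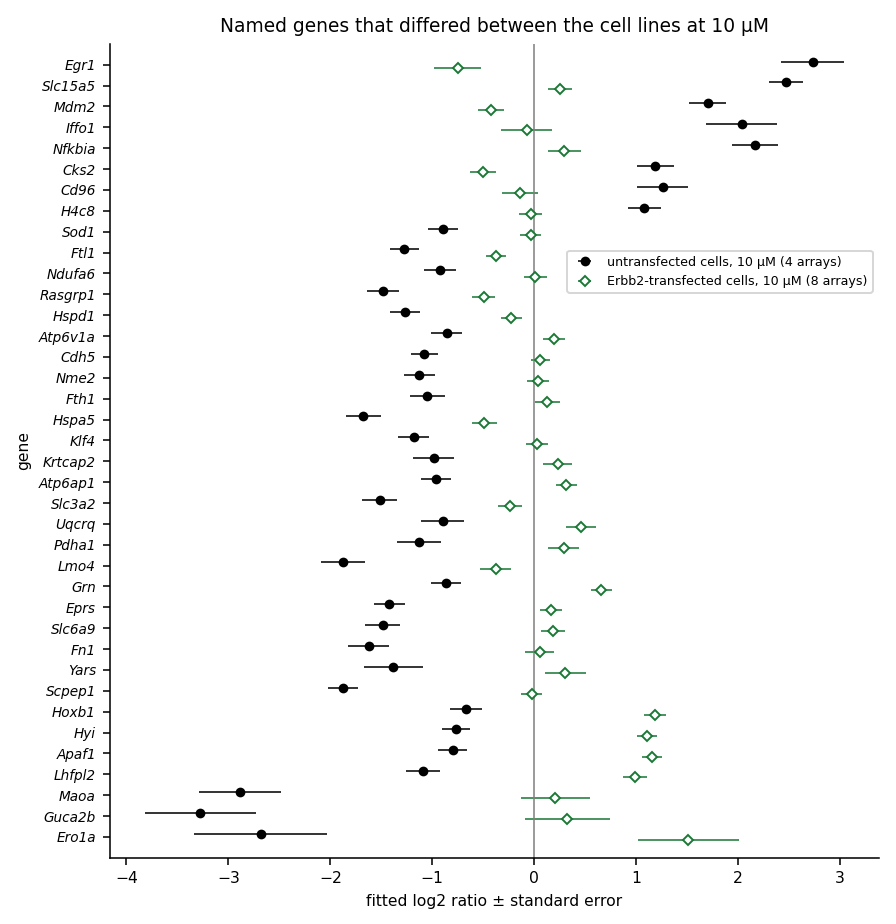
Fitted log2 ratio with its standard error (horizontal axis) of the 38 named genes whose response differed between the lines at an adjusted p under 0.05, for untransfected cells (filled circles, 4 arrays) and Erbb2-transfected cells (open diamonds, 8 arrays). Egr1 lies at 2.73 and -0.75, Hspa5 at -1.68 and -0.49, and Apaf1, Hyi, Hoxb1, Lhfpl2 and Grn lie below 0 in the first and above 0 in the second.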

How the data were processed

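Each of the 16 arrays is a cDNA array with a treated and an untreated RNA in its 2 channels. The authors' deposited values were 1 log2 ratio per probe and array. The log base was inferred from the values themselves, since a value was the log2 of a ratio with 3 decimals plus a constant, and the normalization and image software are stated in none of the sources used here. Values above 10, the placeholder, were set to missing. Arrays whose treated channel is labelled Cy3 were turned in sign, and probes of one symbol were averaged. Features needed a value on 3 of 4 arrays, or 6 of 8, in each group and under both dye labels. Symbols came from GEO's platform annotation, for 14030 of 20355 probes, with 5 probes naming several genes and 6320 none.

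limma 3.58.1 (R 4.3.3) fitted 3 group coefficients and 1 dye term over all 16 arrays. The dye term passed for 0 features in limma, with a smallest adjusted p of 0.0855. Tested on simulated data for the untransfected comparison with 12420 features, the fit recovered 11 of 100 genes changed by 1 log2 unit and 70 of 100 changed by 2, with 8 false among 89 calls, so smaller changes were mostly not detectable. The members and the 44 gene lists were chosen with earlier results of these data known. Named genes were the 15 highest and 15 lowest that passed with one sign on 4 arrays, up to 3 per list, 17 fixed genes, and 5 per direction of the contrast. Other genes given with values were chosen after their values were seen. Same-numbered arrays of different groups deviated with correlations from -0.03 to 0.046, so the numbers were not taken as pairs. Promoter sequences are those of RefSeq for GRCm38.p6 and matched 6321 of 7832 genes. Alternatives to the turning, dye term, averaging, filters, scaling, weights, block and arrays were tried.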

Additional observations from a re-analysis of the deposited data

Results flagged for a closer look

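The response of 38 named genes differed between untransfected and Erbb2-transfected cells at 10 µM, by limma's contrast of untransfected minus Erbb2 at an adjusted p under 0.05. Higher in untransfected cells were Egr1 by 3.48, Slc15a5 by 2.22, Mdm2 by 2.13, Iffo1 by 2.11, Nfkbia by 1.87, Cks2 by 1.69, Cd96 by 1.4 and H4c8 by 1.12 on the log2 scale. The largest negative differences among the named genes were those of Ero1a (-4.2), Guca2b (-3.6) and Maoa (-3.1). Genes opposite in sign in the Erbb2 cells, where they rose, were Lhfpl2 (-2.08), Apaf1 (-1.96), Hyi (-1.87), Hoxb1 (-1.85) and Grn (-1.52). Of the amino acid and synthetase genes, Yars (-1.69), Slc6a9 (-1.67), Eprs (-1.59) and Slc3a2 (-1.28) differed. Mitochondrial genes among them were Pdha1 (-1.41), Uqcrq (-1.36), Hspd1 (-1.04) and Ndufa6 (-0.94). Iron, oxidative stress and lysosomal genes were Atp6ap1 (-1.27), Fth1 (-1.18), Atp6v1a (-1.05), Ftl1 (-0.9) and Sod1 (-0.86). The others were Scpep1 (-1.85), Fn1 (-1.68), Lmo4 (-1.5), Krtcap2 (-1.22), Klf4 (-1.21), Hspa5 (-1.19), Nme2 (-1.16), Cdh5 (-1.14) and Rasgrp1 (-0.99).

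One array stood far from the other 3 in 8 of 100 named genes with 4 values, by Dixon's test, which chance gives in about 1 of 20 groups. Array 4 was low for Ctrb1 (0.748) and Hoxb1 (-0.957) and high for Gbp8 (3.92). Array 2 was high for Ifit3 (3.09), low for Slc6a9 (-1.80) and nearest to 0 for Tpt1 (-0.223). Array 3 was low for Lhfpl2 (-1.51), and array 1 was nearest to 0 for Scd2 (-0.295).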

How the results depend on the processing

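Left out 1 at a time, the 4 arrays gave 213 to 259 features passed (54 to 69 higher, 159 to 190 lower) and 60 to 69 differences from Erbb2 cells (17 to 20 higher, 43 to 51 lower), and 93 of 93 named genes that passed kept their sign. Over those fits the values ran from -0.153 to 0.869 for Cdkn1a, from -0.222 to 0.053 for Slc29a1 and from -0.021 to 0.353 for Uck2, and the list medians from -0.1 to 0.049 for azacytidine uptake, from -0.177 to -0.039 for growth factor receptors and from -0.073 to 0.129 for NF-kappaB. On the 4 arrays alone 0 features passed with a dye term (0 higher, 0 lower) and 1 without it (1 higher, 0 lower, added after seeing the data), with 1621 and 1671 at an unadjusted p under 0.05. Against a 1.2-fold change 154 passed (37 higher, 117 lower) and 45 differences (9 higher, 36 lower). Quantile normalization gave 164 differences (134 lower) and a growth factor receptor median of -0.122, and array weights gave 120 higher. With the treated RNA in the other dye, 265 were higher and 74 lower, and 351 differences passed (279 higher). The numbers do not pair the arrays, and with the replicate number as a block 338 features passed, with Aco1 (adjusted p 0.0533), Ero1a (0.0523) and Gbp8 (0.0501) no longer passing. Without a dye term, with arrays centred or scaled, with each probe on its own, without probes that hold a placeholder, or with a value needed on all 4 arrays, each count stayed within 1.5 times its main value. Calls lost there were Aco1 (0.0666), Bcap31 (0.0512), Ddx52 (0.058), Fkbp1a (0.0943), Ifit3 (0.0511), Krt8 (0.0513) and Sfpq (0.0579) without a dye term, Aco1 (0.0529) with arrays centred, Ero1a (0.0541) with arrays scaled and Lgals1 (0.917) with a value needed on all 4 arrays, each with its adjusted p by limma.

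With no array turned in sign 3 features passed (1 higher, 2 lower, and 592 at an unadjusted p under 0.05) and 0 differences in limma (0 higher, 0 lower, and 645 at an unadjusted p under 0.05). Values then opposite in sign were Anln -0.685, Atf4 0.013, Bcap31 -1.25, Cd151 -2.11, Cd96 -0.632, Cda -0.107, Chac1 0.089, Cks2 -0.035, Cul4a 0.094, Ddx52 0.845, Dnmt1 0.004, Dnmt3a 0.21, Eno3 0.01, Eprs 0.07, Ero1a 1.14, Fkbp1a 0.031, Fn1 0.017, Fth1 0.022, Gapdh 0.076, Gbp8 -0.571, H4c8 -0.103, Hoxb1 0.082, Hspd1 0.067, Iffo1 -0.394, Lgals1 -0.261, Lhfpl2 0.136, Lmo4 0.199, Maoa 0.152, Mdm2 -0.035, Nme2 0.004, Nos3 -0.344, Npm1 0.03, Pabpc1 0.045, Pdha1 0.24, Rps14 0.034, Rrm2 -0.106, Scd2 0.151, Scpep1 0.058, Slc38a2 0.126, Slc3a2 0.186, Stt3a 0.141, Tpt1 0.219, Uqcrq 0.107, Vim 0.013 and Yars 0.012. The list medians opposite in sign were DNA methyltransferases 0.117, stress signalling 0.043, ribosome biogenesis 0.03, ferritin and oxidative stress 0.011, proteasome 0.004, ubiquitin 0.001, matrix crosslinking 0.116, integrins -0.113, chromatin regulators 0.145, cholesterol synthesis 0.028 and splicing 0.048. Without turning, arrays of opposite dye label cancel by construction. Signal over background is not part of the files, so what dim spots limit is unknown.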
